A study of Rattus norvegicus with 8 samples.

Results

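The genes described here code for the subunits of the mitochondrial respiratory chain and of the ATP synthase, measured in rat liver. They were chosen by symbol: every probe whose RefSeq accession named a gene of the Nduf, Sdh, Uqcr, Cox4 to Cox8 or Atp5 families was taken. The reference listed 108 protein-coding genes reported here, of which 70 had a named probe, out of 13031 named genes with a probe. Another 3 genes (Uqcrq, Cox8c and Cox6b2) were not well above background on enough arrays to be tested, which left 67 subunit genes among 25122 features tested. By complex these were 29 genes of complex I, 4 of complex II, 6 of complex III, 13 of complex IV and 15 of complex V. All but Ndufs4 were well above background on all 8 arrays. Of the 38 genes without a named probe, 22 are listed as copies of a family member, and the others include Cox7a1, Cox6b1, Ndufa10, Ndufa13 and Uqcr10. None of the 13 mitochondrially encoded subunits had a named probe, so all values concern nuclear genes.

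RNA from the livers of male Wistar/ST rats was hybridised to 8 Agilent 1-colour (Cy3) arrays, 4 in the Control group and 4 in the Eucommia group. Both groups ate a high-fat diet and drank water rich in fructose for 5 weeks, and the Eucommia group also received an extract of the leaves of Eucommia ulmoides, a tree whose leaves are brewed as tea. No group on a normal diet entered the comparison, and the age of the rats is not given in the sources used here. The labels do not state that each array came from a separate rat. The p-values therefore measure only how far these samples spread, which may be technical. Levels are log2 signals relative to the signal at the 75th percentile of each array: 0 is the signal at that percentile and 1 is a doubling of it. Differences are Eucommia minus Control on the same scale.

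In respiration, complex I takes electrons from NADH and complex II takes them from succinate, and both pass them to coenzyme Q. Complex III hands them on to cytochrome c, and complex IV transfers them to oxygen. Complexes I, III and IV pump protons across the inner membrane, and complex V, the ATP synthase, lets the protons flow back and makes ATP. Liver holds many mitochondria and relies on this chain to oxidise fatty acids, and several complex IV subunits exist as an isoform found in most tissues and another found in heart and skeletal muscle, lung or testis.

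All Control arrays were on 1 slide and all Eucommia arrays on another, scanned separately. An effect of the slide and an effect of the extract therefore cannot be told apart in the differences given here. Between 58.9% and 61.5% of spots were well above background on the Control arrays and between 69.3% and 71.9% on the Eucommia arrays. Log2 signals correlated across features at 0.985 to 0.989 between Control arrays, 0.990 to 0.994 between Eucommia arrays and 0.962 to 0.973 between arrays of different groups. Hepatocyte markers were strong on every array: their summed signal was 4538.3 to 5280.4 multiples of the 75th-percentile signal on Control arrays and 3961.1 to 4649.2 on Eucommia arrays. Of 8 markers 1 was called, Tf, which was lower. The median difference of these markers was -0.23, with a range of -0.55 to 0.11, and only Serpina1 had a positive difference.

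Most subunit transcripts differed little between the groups. Of the 67 genes, 4 passed limma with Benjamini-Hochberg adjustment over all features at 0.05 (5.97%), against 24.6% of all features tested. Cox6a2 and Atp5pf were higher in the Eucommia group and Cox7c and Ndufa1 were lower. Over all features 18.4% were called higher and 6.17% lower. The filter can admit features above background on the 4 arrays of only 1 group. With background required on all 8 arrays, 2318 of 20096 features were called higher and 1377 lower. The same 4 subunit genes were called in that setting. Subunit transcripts are abundant, with a mean level above 0 for 64 of 67 genes, and among the 8960 features brighter than the 75th percentile 9.69% were called, 3.73% higher and 5.96% lower. The share of subunit genes called was thus nearer to that of bright features than to that of all features.

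The median difference over the 67 genes was -0.04, beside 0.02 over all features and -0.04 over the bright ones. A negative difference was found for 42 subunit genes (62.7%), against 57.7% of bright features and 47.4% of all features. In 55 genes the difference was smaller than 0.2 in either direction, and in 54 genes the whole 95% interval lay within 0.5 of 0. For 42 genes the difference was smaller than the SD within the groups. The groups did not overlap in 7 genes (10.4%), compared with 17.1% of bright features and 28.5% of all features: Cox6a2 and Atp5pf were higher on all Eucommia arrays, and Ndufa1, Ndufc2, Ndufv1, Sdha and Cox7c were lower on all of them.

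How many genes were called depended on where 0 was placed. With each array centred on its median instead of its 75th percentile, the median difference of all features moved from 0.02 to -0.24, and 35 of the 67 subunit genes were called lower and 1 (Cox6a2) higher. That centring also turned the calls over all features from 74.9% higher to 32.3% higher. The differences below are therefore relative to the 75th percentile, and a general shift of the chain is not shown by either scaling alone.

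**Figure D1:**
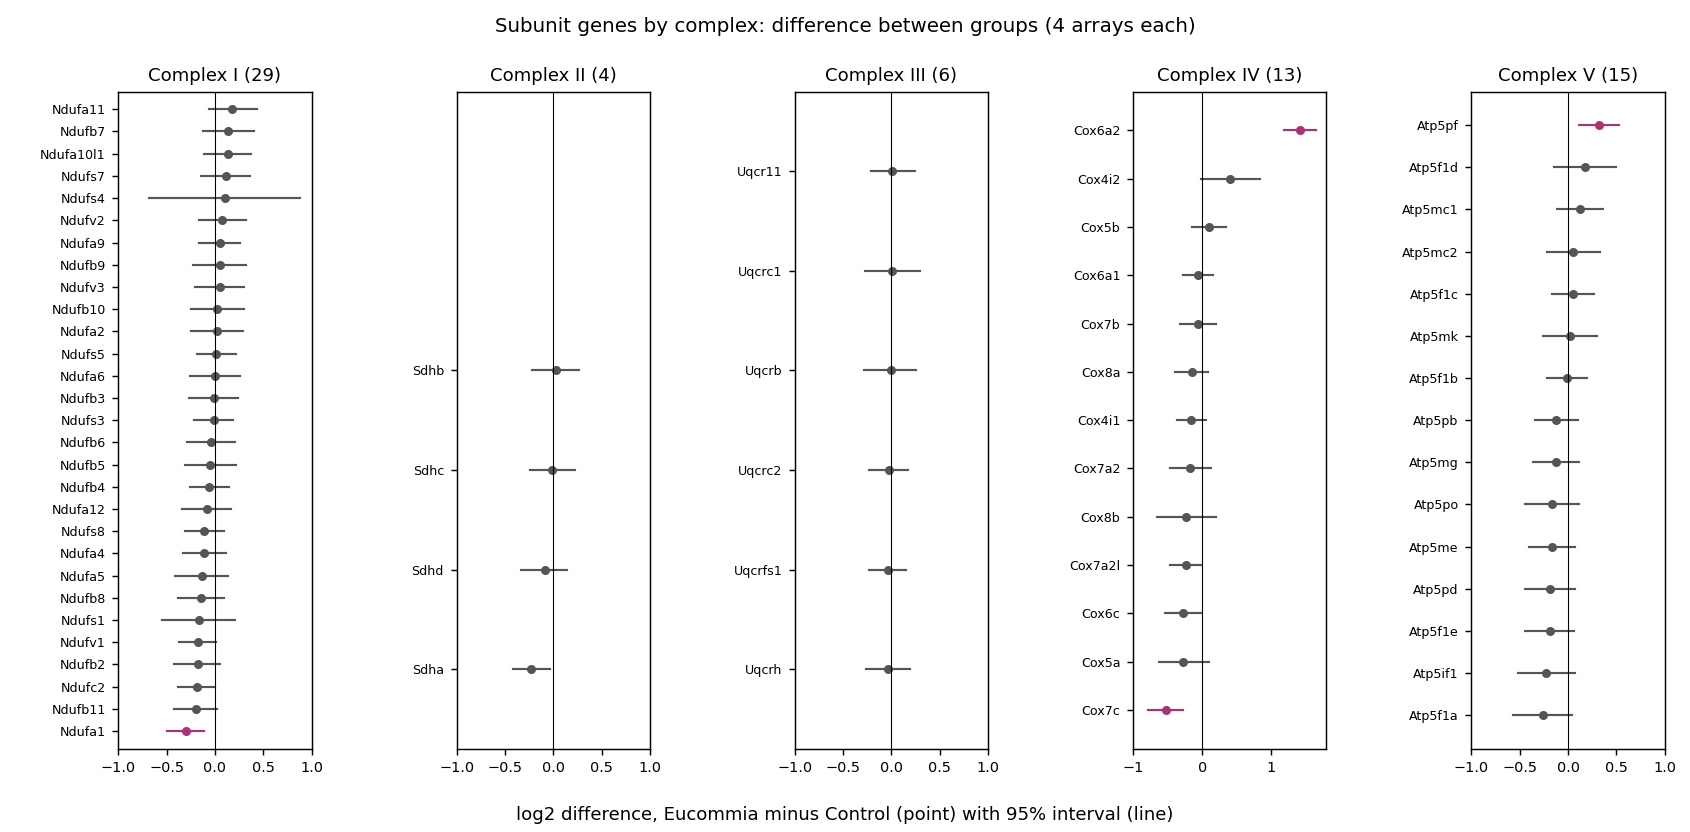
Log2 difference between the Eucommia and Control groups (x axis, Eucommia minus Control) for each of the 67 subunit genes tested, by complex, with points for the estimate, lines for the 95% interval and colour for the 4 genes past the adjusted threshold. Most points lie within 0.2 of 0, while Cox6a2 lies at 1.42, and the panel of complex IV has a wider axis than the others.

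Complex I, the NADH dehydrogenase, had 1 of 29 genes lower and none higher, and its median difference was -0.01. The differences ran from -0.30 to 0.18, with 13 positive and 16 negative. Ndufa1 codes for a small membrane subunit needed to assemble complex I. Its levels were 5.98, 6.06, 6.09 and 6.12 in the Control group and 5.85, 5.76, 5.63 and 5.80 in the Eucommia group. The groups did not overlap, but the nearest arrays were close. The difference was -0.30 ± 0.09 (SE; limma adjusted p = 0.0321), or 81.0% of Control. The call was kept in 3 of 8 fits that left out 1 array. It was lost without Control 2, 3 or 4 or without Eucommia 2 or 3, where limma's adjusted p was 0.0667 to 0.0871.

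The core subunits described here, which form the catalytic part of complex I, did not pass the test. Ndufv1, which binds NADH and FMN, had a difference of -0.18 ± 0.08 (limma adjusted p = 0.161), and Ndufs1, the largest core subunit, had -0.17 ± 0.17 (limma adjusted p = 0.517). Ndufs3, Ndufs7, Ndufs8 and Ndufv2, which carry or surround the iron-sulfur clusters or the quinone site, had differences of -0.01, 0.11, -0.11 and 0.07. The 95% intervals of these core subunits included 0. Ndufa11, an accessory membrane subunit, had the most positive difference of complex I: its levels were 2.76, 2.95, 2.77 and 2.67 in the Control group and 2.91, 2.93, 2.86 and 3.18 in the Eucommia group. The groups overlapped, and the difference of 0.18 ± 0.11 did not pass (limma adjusted p = 0.254).

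Ndufc2, an accessory subunit of the membrane arm, was measured by 2 probes that moved the same way by different amounts. The brighter probe, used for the gene, read 5.83, 5.81, 5.83 and 5.75 in the Control group and 5.61, 5.50, 5.63 and 5.71 in the Eucommia group, a difference of -0.19 ± 0.08 that did not pass (limma adjusted p = 0.135). The dimmer probe read 0.59, 0.69, 0.61 and 0.75 in the Control group and -0.54, -0.65, -0.13 and 0.03 in the Eucommia group. With every probe tested on its own its difference was -0.98 ± 0.15 (limma adjusted p = 0.00159); it was singled out after its values were seen. The arrays did not overlap with either probe. With the mean over both probes in place of the brighter, the gene passed at -0.59 (limma adjusted p = 0.00429), and under median centring it was also called lower.

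Complex II, succinate dehydrogenase, is both a citric acid cycle enzyme and an entry point to the chain. None of its 4 genes was called, and the differences ran from -0.23 to 0.03 around a median of -0.05. Sdha, the flavin-bearing catalytic subunit, read 7.21, 7.33, 7.35 and 7.39 in the Control group and 7.18, 7.05, 7.02 and 7.14 in the Eucommia group. Every Eucommia array was below every Control array, with Control 1 and Eucommia 1 nearly equal. The difference of -0.23 ± 0.09 did not pass (limma adjusted p = 0.0921).

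Sdhb, which carries the iron-sulfur clusters of complex II, read 5.28, 5.48, 5.34 and 5.41 against 5.38, 5.22, 5.37 and 5.64 in the Eucommia group, a difference of 0.03 ± 0.11. The groups overlapped throughout. Sdhc and Sdhd, the membrane anchors, had differences of -0.01 and -0.09.

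Complex III had the narrowest range of differences. Its 6 genes differed by -0.04 to 0.01, none was called, and all their 95% intervals lay between -0.28 and 0.30. Uqcrfs1, the Rieske iron-sulfur protein, read 5.94, 5.93, 5.94 and 5.97 in the Control group and 5.95, 5.83, 5.84 and 6.01 in the Eucommia group (-0.04 ± 0.08). Uqcr11, a small subunit, read 5.85, 5.88, 5.81 and 5.64 against 5.85, 5.69, 5.73 and 5.95 (0.01 ± 0.10). The groups overlapped in both genes. Uqcrb, which lies beside the quinone site, had 3 probes above background with differences of -0.01, -0.30 and -0.15, none past the threshold.

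Complex IV, cytochrome c oxidase, held both the largest rise and the largest fall among the 67 genes. Of its 13 genes 10 had a negative difference, 1 was called higher and 1 lower, and the median was -0.16. Cox7c codes for a small nuclear subunit present in all tissues. Its levels were 2.51, 2.81, 2.71 and 2.60 on the Control arrays and 2.18, 1.96, 2.05 and 2.32 on the Eucommia arrays. All Eucommia arrays lay below the lowest Control array. Cox7c fell by 0.53 ± 0.11 (SE) on the log2 scale, to 69.2% of Control (limma adjusted p = 0.00750), with a 95% interval of -0.78 to -0.28.

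Cox6a2 codes for the form of subunit 6a found in heart and skeletal muscle. Its levels were -1.11, -0.89, -0.87 and -0.90 on the Control arrays and 0.58, 0.55, 0.49 and 0.27 on the Eucommia arrays. The groups were separated by far more than the spread within either. The difference was 1.42 ± 0.10 (SE), or 2.67-fold, with a 95% interval of 1.18 to 1.65 and a limma adjusted p of 1.72e-05. Among the 4895 features of similar level (mean between -1 and 1), 9.23% were called higher and 1.53% rose by at least as much as Cox6a2.

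Cox6a1, the form of the same subunit found in liver, read 8.13, 8.36, 8.23 and 8.19 in the Control group and 8.19, 8.08, 8.07 and 8.34 in the Eucommia group. Its groups overlapped and its difference was -0.06 ± 0.10 (limma adjusted p = 0.712, 95% interval -0.28 to 0.16). The intervals of the 2 isoforms did not overlap. The difference between them was not tested directly.

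Cox8b, the muscle form of subunit 8 and the only other muscle isoform tested, did not pass the test. This dim gene read -3.44, -3.93, -3.67 and -3.74 in the Control group and -3.89, -4.20, -3.42 and -4.17 in the Eucommia group. The groups overlapped, with a difference of -0.23 ± 0.19 (limma adjusted p = 0.435). Its liver counterpart Cox8a had a difference of -0.15 ± 0.10, with levels of 7.08, 7.18, 7.08 and 6.98 against 6.99, 6.87, 6.75 and 7.12. Cox8c and Cox6b2, the testis forms, were well above background on no Control array and on 0 and 1 Eucommia arrays. Cox7a1 and Cox6b1 had no named probe here.

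Some markers of other cell types also differed between the groups, in both directions. Of all features, 18.4% were called higher and 6.17% lower. Among features brighter than the 75th percentile 3.73% were called higher, so the share was larger among dimmer features. Several of the markers that rose are dim. Mean levels were -3.36 for Actn3, -2.47 for Atp2a1, -3.49 for Cela2a, -2.69 for Cel and -2.59 for Cdh5. The share called among features of their level was not computed. Of 12 skeletal muscle markers listed, 11 had a probe and 5 were above background on enough arrays to be tested. Of these, 4 rose: Mb (myoglobin) by 0.97, Actn3 by 0.91, Atp2a1 (the fast-fibre calcium pump) by 0.90 and Tnni2 (fast troponin I) by 0.79. Tnnc2 had a difference of 0.14 and was not called. With normexp and quantile normalization together, Actn3 did not pass (0.16, limma adjusted p = 0.109), and Atp2a1 passed at 0.29. The summed signal of the muscle list was 1.92 to 2.27 multiples of the 75th-percentile signal on Control arrays and 3.46 to 3.74 on Eucommia arrays. Acta1, Ckm, Myh1, Myh2, Myh4 and Tnnt3, also on the muscle list, were not well above background on any array. Whether their probes can detect these transcripts was not tested. None of the 3 cardiac markers tested was called, and Myh7 and Myl2 were on no array above background. Of the 6 pancreatic acinar markers tested 3 rose, Ctrb1 by 1.79, Cela2a by 1.11 and Cel by 0.62. Cpb1, Amy2a3 and Pnlip had differences of -0.21, -0.16 and 0.64 and were not called. Pnlip was well above background on 1 Control array and 4 Eucommia arrays, and Prss1 on no array. The summed signal of the acinar list was 1.46 to 1.81 on Control arrays and 2.53 to 3.64 on Eucommia arrays. The endothelial marker Cdh5 rose by 1.01 and the fibroblast marker Col1a1 by 0.83, with 1 of 4 and 1 of 6 markers called. The endothelial markers Kdr and Lyve1 had differences of -0.26 and -0.17. Pecam1, also endothelial, was 2.14-fold higher and not called (limma adjusted p = 0.0617). It was well above background on no Control array and on 4 Eucommia arrays. Among the other stellate and fibroblast markers, Col1a2 and Dcn had differences of -0.11 and -0.01. Col3a1, Lrat and Des had 0.32, 0.26 and 0.36, and none of these was called. All 8 Kupffer cell and macrophage markers had negative differences (median -0.54, highest -0.15), and none was called. Of 3 cholangiocyte markers tested 1 was called, Epcam, which was lower (-0.52, limma adjusted p = 0.0163). The part of RNA from other cell types in the Cox6a2 value was not tested. Bulk liver RNA also cannot tell more cells of a type from more RNA per cell.

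**Figure D2:**
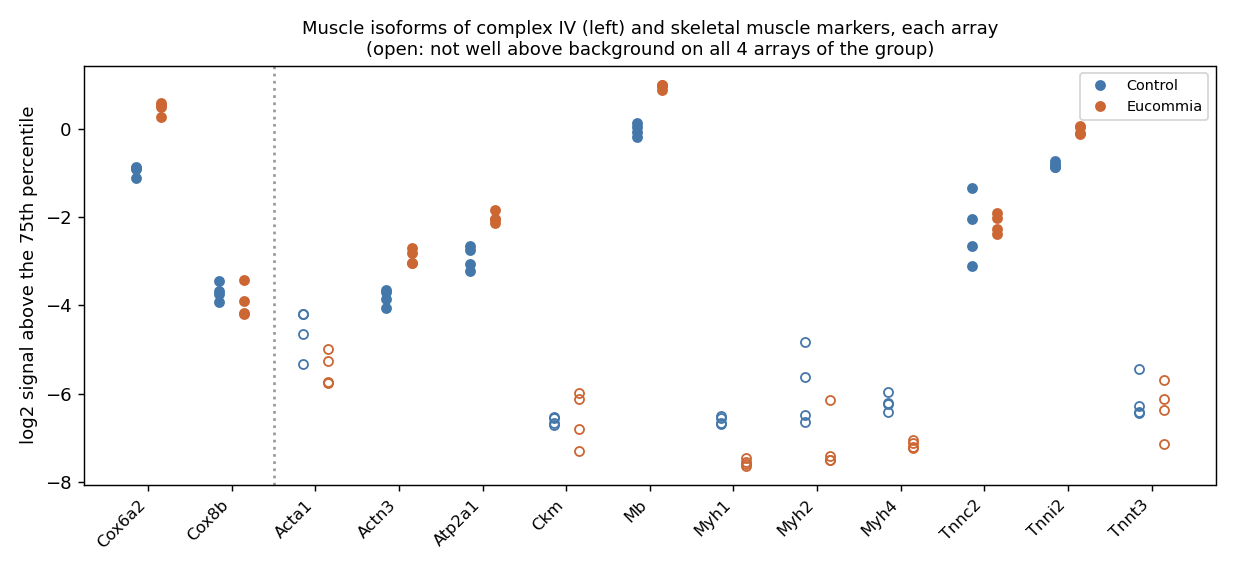
Log2 signal relative to each array's 75th percentile (y axis) of Cox6a2 and Cox8b and of 11 skeletal muscle markers, with 1 point per array, Control at left and Eucommia at right of each gene, and open points for genes below the background criterion on some array of the group. Cox6a2, Mb, Tnni2, Actn3 and Atp2a1 are higher on every Eucommia array, while Cox8b overlaps and Acta1, Ckm and the myosin genes are open points.

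Subunit 4 also has 2 forms. Cox4i1, found in all tissues, read 4.58, 4.73, 4.67 and 4.69 in the Control group and 4.47, 4.39, 4.49 and 4.67 in the Eucommia group, a difference of -0.16 ± 0.09 (limma adjusted p = 0.250). Cox4i2, the lung form, read 2.99, 3.60, 2.92 and 2.93 against 3.60, 3.54, 3.77 and 3.15. Control 2 reached the Eucommia arrays while the other Control arrays lay below all of them, and the difference of 0.41 ± 0.19 did not pass (limma adjusted p = 0.163). Without Control 2 it was 0.57 and passed (limma adjusted p = 0.0293).

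Of the remaining complex IV genes, the most negative differences were those of Cox5a (-0.27 ± 0.16), Cox6c (-0.27 ± 0.12) and Cox7a2l (-0.24 ± 0.10), the last a factor that joins complexes III and IV. None passed the test. Cox7a2, the liver form of subunit 7a, read 6.14, 6.44, 6.22 and 6.05 in the Control group and 5.97, 5.90, 5.97 and 6.34 in the Eucommia group (-0.17 ± 0.13). Cox7b, another small subunit, read 5.09, 5.33, 5.26 and 5.08 against 5.06, 4.99, 5.08 and 5.37 (-0.06 ± 0.11). Both overlapped between groups, and in both Eucommia 4 was the highest of its group.

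Ndufa4 carries a complex I symbol but its protein is a subunit of complex IV. It read 7.18, 7.36, 7.27 and 7.21 in the Control group and 7.08, 7.09, 7.07 and 7.35 in the Eucommia group, a difference of -0.11 ± 0.10. Eucommia 4 lay with the Control arrays and the other Eucommia arrays lay below them. Counting it with complex IV left the median of complex I at -0.01 and that of complex IV at -0.16. For Cox5b the 2 probes disagreed in direction, at 0.10 ± 0.11 for the brighter and -0.39 ± 0.13 for the other, and neither passed.

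Complex V, the ATP synthase, had 1 of 15 genes higher and none lower, with a median of -0.12 and 9 negative differences. Atp5pf codes for coupling factor 6, part of the stalk that holds the catalytic head in place. It read 5.83, 6.03, 5.86 and 5.83 in the Control group and 6.14, 6.13, 6.22 and 6.34 in the Eucommia group. The Eucommia arrays were all higher, with Control 2 nearest to them. The difference was 0.32 ± 0.09 (SE), or 1.25-fold (limma adjusted p = 0.0347). Of 8 fits that left out 1 array, the call was kept in that without Control 2 (limma adjusted p = 0.0276). It was lost without Control 1, 3 or 4 or any Eucommia array, with adjusted p of 0.0577 to 0.0800. Under median centring the difference was 0.07 and did not pass (limma adjusted p = 0.587).

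Atp5f1a, the alpha subunit of the catalytic head, had the most negative difference of complex V. It read 5.93, 5.62, 5.57 and 5.95 in the Control group and 5.64, 5.51, 5.62 and 5.23 in the Eucommia group. The groups overlapped, and the difference of -0.26 ± 0.14 did not pass (limma adjusted p = 0.204). Its partner Atp5f1b, the catalytic beta subunit, had a difference of -0.01 ± 0.09, and Atp5f1c, Atp5f1d and Atp5f1e of the central stalk had 0.05, 0.18 and -0.19.

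Among the other parts of the synthase, Atp5if1, the inhibitor that blocks ATP hydrolysis when the proton gradient fails, had a difference of -0.23 ± 0.13 (limma adjusted p = 0.263). Without Eucommia 4 it was -0.35 and passed (limma adjusted p = 0.0227). Atp5mc1 and Atp5mc2 code for the same mature ring subunit and are separate genes with their own import signals. Atp5mc1 read 6.41, 6.62, 6.41 and 6.35 in the Control group and 6.51, 6.47, 6.55 and 6.75 in the Eucommia group (0.12 ± 0.10), and Atp5mc2 read 6.76, 7.05, 6.88 and 6.70 against 6.87, 6.76, 6.81 and 7.15 (0.05 ± 0.12). Neither passed, and both overlapped between groups. Atp5pb, Atp5pd and Atp5po of the peripheral stalk, in which Atp5pf also sits, had differences of -0.12, -0.19 and -0.17.

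**Figure D3:**
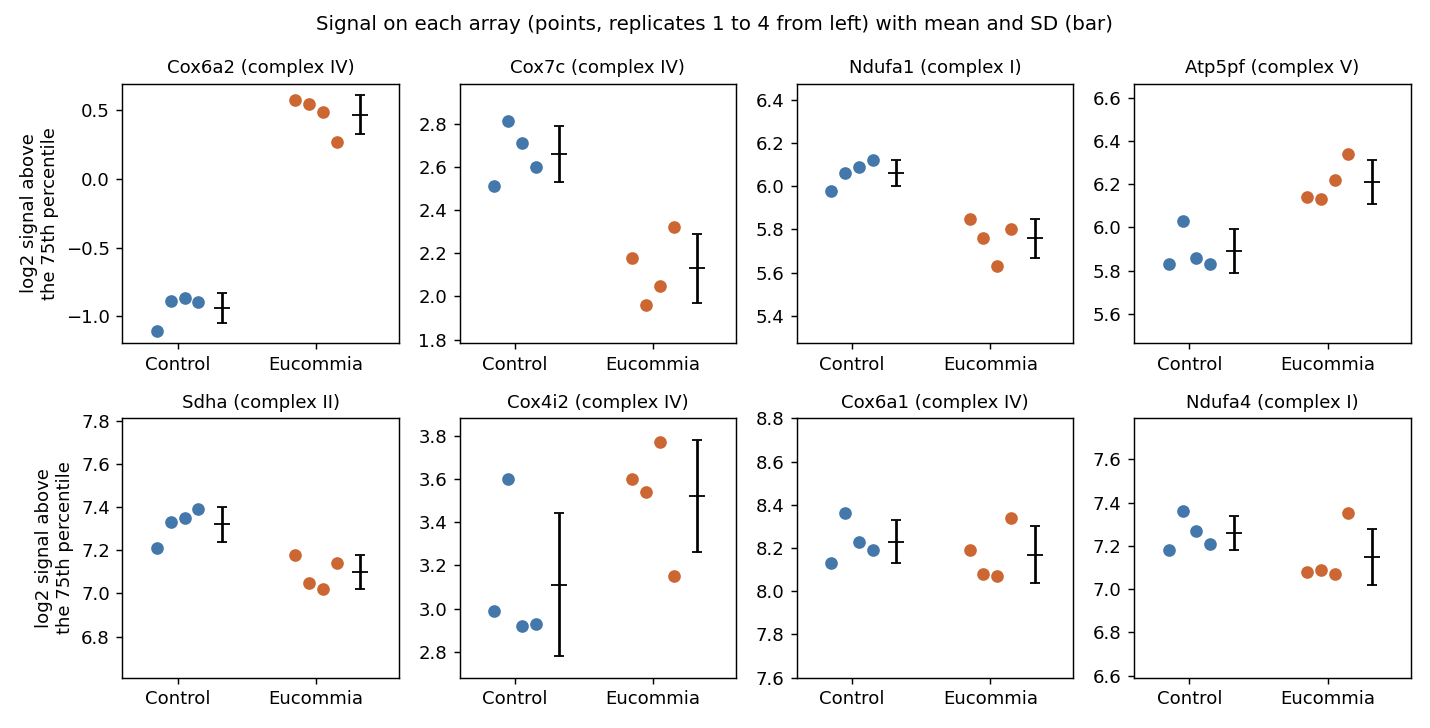
Log2 signal relative to each array's 75th percentile (y axis, range differing by panel) of the 4 genes called and of Sdha, Cox4i2, Cox6a1 and Ndufa4, with a point for each array from replicate 1 at left to 4 at right, and a bar for the mean and SD of 4 arrays. The groups do not overlap in the 4 genes called, and Cox4i2 shows Control 2 apart from the other Control arrays.

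The 250 bases before the start of each called gene are shown, since these are the members that passed the adjusted threshold. Capitals mark matches, on either strand, to the motifs searched: GCGCATGCG (NRF1), CCGGAAGT (GABPA), TCAAGGTCA (ERR), GGGCGG (SP1), CTAAAAATA (MEF2) and CAGCTG (the E-box of MyoD). Each motif was counted on its own, and no matches overlap in the windows shown. The sequences are from RefSeq, build GRCr8, on the minus strand, at chr1:192219717-192219966 for Cox6a2, chr2:18579171-18579420 for Cox7c, chrX:121293556-121293805 for Ndufa1 and chr11:37375102-37375351 for Atp5pf.
Cox6a2: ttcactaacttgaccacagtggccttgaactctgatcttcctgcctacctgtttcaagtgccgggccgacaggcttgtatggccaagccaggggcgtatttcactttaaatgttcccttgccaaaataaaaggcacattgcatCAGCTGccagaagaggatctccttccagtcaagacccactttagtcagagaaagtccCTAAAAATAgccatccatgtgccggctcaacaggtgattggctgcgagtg
Cox7c: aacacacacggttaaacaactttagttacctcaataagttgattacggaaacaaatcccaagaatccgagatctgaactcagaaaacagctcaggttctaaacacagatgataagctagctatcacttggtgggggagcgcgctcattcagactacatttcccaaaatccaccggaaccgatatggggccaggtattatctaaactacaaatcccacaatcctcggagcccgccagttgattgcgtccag
Ndufa1: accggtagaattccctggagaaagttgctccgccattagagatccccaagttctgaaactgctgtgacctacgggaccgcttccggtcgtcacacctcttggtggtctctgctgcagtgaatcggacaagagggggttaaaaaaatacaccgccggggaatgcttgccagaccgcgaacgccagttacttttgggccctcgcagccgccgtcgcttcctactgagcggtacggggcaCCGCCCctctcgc
Atp5pf: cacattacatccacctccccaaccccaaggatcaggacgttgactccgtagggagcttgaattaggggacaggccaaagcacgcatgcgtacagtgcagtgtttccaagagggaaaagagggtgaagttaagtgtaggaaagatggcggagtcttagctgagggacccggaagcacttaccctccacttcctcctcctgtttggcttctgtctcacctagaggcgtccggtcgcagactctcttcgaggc

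In the Cox6a2 window the E-box match began 107 bases and the MEF2 match 50 bases before the start. MEF2 and MyoD are transcription factors of muscle genes. The MEF2 letters were in 127 of 27457 promoters of the same length (0.463%) and in no other of the 59 subunit promoters available. The E-box letters were in 8 subunit promoters (13.6%) and in 11.9% of all. Cox8b, the other muscle isoform tested, held 2 E-box matches, and its difference was -0.23 and not called. The motifs were chosen after values were seen. Ndufa1 had an SP1 match 13 bases before its start, and 22 subunit promoters held those letters (37.3%) against 32.4% of all. Cox7c and Atp5pf had no match. The search took exact letters only, so sequences that differ from a motif in any base were not counted.

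Nrf1 and Gabpa code for factors known to drive respiratory chain genes. The NRF1 letters were in 6 of 59 subunit promoters (10.2%), those of Ndufa11, Uqcrc1, Atp5mc2, Atp5me, Atp5mg and Atp5po, against 1.49% of all promoters. The GABPA letters were in 6 promoters (10.2%) against 3.29%, and the ERR letters in none against 0.368%. In that order the 6 genes with the NRF1 letters had differences of 0.18, 0.01, 0.05, -0.17, -0.12 and -0.17, and none was called. The median GC content was 55.6% in subunit promoters and 52.0% in all, and matches are described without regard to it.

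Although few genes differed between groups, the subunit genes moved together from array to array within a group. Counting the genes above their own group mean gave 10 of 67 on Control 1, 58 on Control 2, 39 on Control 3 and 21 on Control 4. In the Eucommia group the counts were 29, 7, 23 and 59 on arrays 1 to 4. Within their groups Control 2 and Eucommia 4 had the highest counts and Control 1 and Eucommia 2 the lowest. These 4 arrays were singled out by the counts of these same genes. On all 4 of them 49 of 67 genes lay on the matching side of their group mean, which is a description and not a test. Bright features as a whole leaned the same way but less: 59.3% were above their group mean on Control 2 and 68.1% on Eucommia 4, against 86.6% and 88.1% of subunit genes, and 41.4% on Control 1 and 37.2% on Eucommia 2, against 14.9% and 10.4%. The bright features were not matched to the subunit genes in level: their median Control level was 2.13, against 5.72 for the subunit genes. The source of this spread between arrays was not tested.

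All complexes shared it. On Control 2 and on Eucommia 4, 26 of 29 complex I genes were above their group mean, and on Eucommia 4 so were all 4 genes of complex II and all 6 of complex III. For complex V 13 of 15 genes were above on each of these arrays. The median deviation of all 67 genes from their 8-array means was -0.06, 0.13, 0.04 and -0.01 on Control arrays 1 to 4 and -0.02, -0.12, -0.07 and 0.14 on Eucommia arrays 1 to 4. No complex had medians that separated the groups, and on Eucommia 4 the median of every complex was above those on Control 1, 3 and 4.

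**Figure D4:**
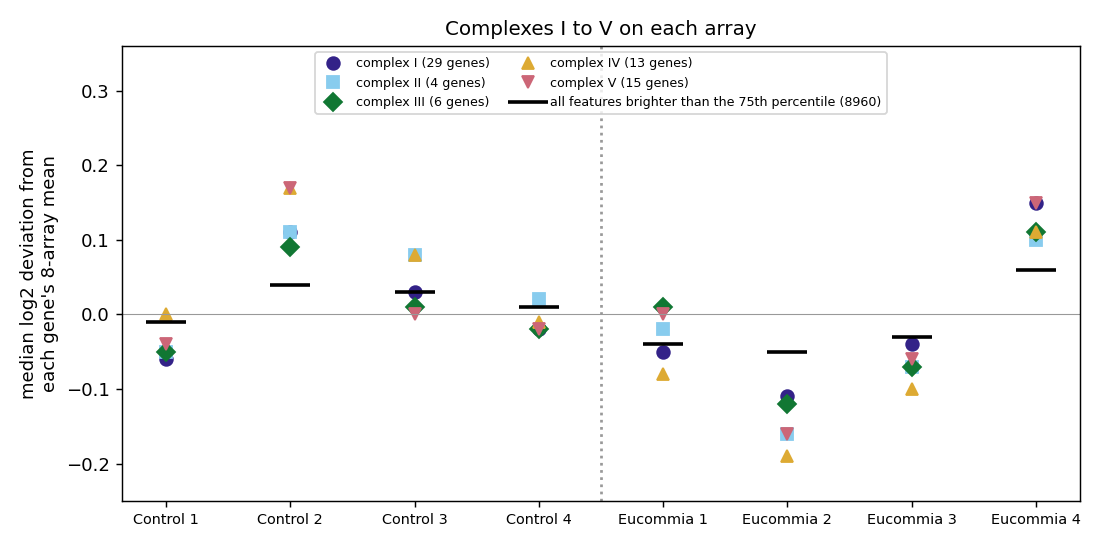
Median log2 deviation of each complex's genes from their own mean over 8 arrays (y axis) on each array (x axis), with coloured symbols for complexes I to V and black bars for the 8960 bright features. All 5 complexes lie high on Control 2 and Eucommia 4 and low on Eucommia 2, and no complex separates the groups.

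A few genes went against this pattern. Ndufs1, Ndufv1, Cox8b, Atp5f1a and Atp5f1b were above their group mean on Control 1 and below it on Control 2 and Eucommia 4. Ndufs1 showed it clearly, at 2.08, 1.72, 1.69 and 2.11 in the Control group and 1.93, 1.82, 1.87 and 1.31 in the Eucommia group. Cox6a2 and Cox4i2 were also lowest on Eucommia 4 within their group, where most subunit genes were highest. These genes were singled out after their values were seen.

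Genes that build or serve the chain were read from the same fit. For each list that follows, the share over all features was 18.4% called higher and 6.17% lower, with groups that did not overlap in 28.5%. Of 56 assembly factors listed, 32 were tested, none rose and 1 fell: Ttc19, a complex III assembly factor (-0.32 ± 0.10, limma adjusted p = 0.0409), whose levels were 0.59, 0.56, 0.36 and 0.62 in the Control group and 0.25, 0.11, 0.33 and 0.18 in the Eucommia group. The groups did not overlap. The call was lost without Control 1, 2 or 4 or without Eucommia 1, 2 or 4 (limma adjusted p 0.0773 to 0.117), and with normexp and quantile normalization together (0.0943). The median difference of the 32 genes was -0.05.

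Of 32 genes for mobile carriers, coenzyme Q synthesis and exchange across the inner membrane, 25 were tested, 1 rose and 2 fell, around a median of -0.06. Gpd2, the glycerol-3-phosphate dehydrogenase that feeds electrons to coenzyme Q, rose by 0.52 ± 0.14 (limma adjusted p = 0.0299). Coq4, a coenzyme Q synthesis protein, fell by 0.54 ± 0.12 (limma adjusted p = 0.0101), and Slc25a3, the mitochondrial phosphate carrier that supplies the ATP synthase, fell by 0.29 ± 0.09 (limma adjusted p = 0.0488). In all 3 the groups did not overlap, as in 28.5% of all features. The Coq4 call was kept without any 1 array. The Gpd2 call was lost without Control 3 or 4 or any Eucommia array (limma adjusted p 0.0534 to 0.0737), and the Slc25a3 call without any array but Eucommia 4 (limma adjusted p 0.0561 to 0.137). Median centring also ended the Gpd2 call (0.26, limma adjusted p = 0.140), and quantile normalization, alone or after normexp, ended that of Slc25a3 (limma adjusted p 0.0539 and 0.0676). Cycs, cytochrome c, had a difference of -0.18 ± 0.10 that did not pass (limma adjusted p = 0.218), and the uncoupling protein genes Ucp1 and Ucp3 were not well above background on any array.

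Of 30 genes for regulators and mitochondrial DNA maintenance, 28 were tested, 1 rose and none fell, with a median of -0.02. The one that rose was Ppard, a nuclear receptor for fatty acids, which read -3.92, -3.67, -3.98 and -4.07 in the Control group and -2.01, -2.20, -2.08 and -2.13 in the Eucommia group. This dim gene was 3.50-fold higher (1.81 ± 0.11 on the log2 scale, limma adjusted p = 6.06e-06). With normexp and quantile normalization together the difference was 0.51 and still passed (limma adjusted p = 1.04e-04). Nrf1, Tfam (the packaging factor of mitochondrial DNA) and Esrra (a receptor that drives oxidative genes) had differences of 0.02 ± 0.10, -0.01 ± 0.08 and -0.06 ± 0.10. Larger differences that did not pass were those of Gabpa (-0.21 ± 0.13), Gabpb1 (-0.23 ± 0.13), Prkaa2 (-0.26 ± 0.09) and Pprc1 (0.23 ± 0.15). The most negative was Prkaa1, at -0.48 ± 0.16 (limma adjusted p = 0.0567). Ppargc1a and Sirt1 were listed but not tested.

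Many subunit genes have processed pseudogenes whose transcripts a short probe may not tell apart. Of the 4 genes called, 3 have listed pseudogenes (Cox7c 3, Ndufa1 1 and Atp5pf 4), compared with 30 of the 63 not called, and Cox6a2 has none. Whether any pseudogene signal entered these probes was not tested.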

How the data were processed

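The deposited scanner files hold intensity values written by Agilent Feature Extraction, version 10.1.1.1 per the file headers. Their processed signal is background-subtracted and not normalized between arrays, per the file headers, and the deposited series table holds the same intensity at 100% of the 43379 non-control spots, linear and not centred. The flags in the deposited files (control, well above background, saturated, outlier) are of another kind. No spot was saturated.

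Control and outlier spots were removed, repeated spots of 1 probe averaged, and each array's 75th percentile of log2 signal was subtracted. Probes well above background on at least 4 of 8 arrays were kept (27717 of 41012). Accessions were matched without version to RefSeq's GRCr8 gene table, which named 16336 probes. A gene is its brightest probe, and an unnamed probe is its own feature. The comparison used limma 3.58.1 (R 4.3.3), 2-sided, with Benjamini-Hochberg adjustment over all 25122 features at 0.05. The labels state no pairing by replicate number. Deviations of arrays with the same number correlated at -0.10 to -0.03, which cannot exclude a pairing. The number of arrays limits the precision. A slide block could not be fitted.

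A gene that meets the rule is not reported here and is left out of the counts of subunits, but not of the fit. The members and lists were chosen with earlier results of these data known, and the promoter motifs after values were seen. Values on every array are given for members past the threshold, the extremes of each complex and the tissue isoform pairs, and every related gene past the threshold is named. Other genes were named after their values were seen. Alternatives concerned scaling, background, filters, probe summary, variance, the replicate number as a block, each array left out, and, chosen after seeing the data, bright features alone. Normexp used the median signal with an offset of 50 and was followed by quantile normalization.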

Additional observations from a re-analysis of the deposited data

Results flagged for a closer look

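Within groups of 4 arrays, 11 of 174 sets of values examined had 1 array farther from the others than a Dixon test allows, and chance gives about 1 in 20. On Control 2, Atp5pf read 6.03 against 5.83 to 5.86 on the other Control arrays, Cox4i2 read 3.60 against 2.92 to 2.99, and Cycs read 5.85 against 5.66 to 5.70. On Control 1, Cox6a2 read -1.11 against -0.90 to -0.87. On Eucommia 4, Cox7a2 read 6.34 against 5.90 to 5.97, Ndufa4 read 7.35 against 7.07 to 7.09 and Atp5pd read 5.67 against 5.28 to 5.32. On the same array Ndufb9 read 6.53 against 6.16 to 6.21 and Ndufs5 read 5.31 against 5.06 to 5.09. On Control 4, Uqcrc1 read 2.20 against 1.74 to 1.79 and Uqcrfs1 read 5.97 against 5.93 to 5.94.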

How the results depend on the processing

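Cox7c passed limma's adjusted threshold with the same sign in all 21 alternatives run (-0.79 to -0.48), and Cox6a2 in all 20 that tested it (1.14 to 1.48). No called difference changed sign. Ndufa1 passed in 15 of 21 and Atp5pf in 12 of 21. Median centring gave 7953 genes lower over all features, 1 subunit gene higher and 35 lower, 1 related gene higher and 42 lower, and medians of -0.27, -0.31, -0.28, -0.42 and -0.38 for complexes I to V. Quantile normalization alone gave 2955 genes lower, normexp followed by quantile normalization 2714, and no filter on dim probes 7380. Normexp with quantile normalization also called 4 subunit genes higher, with 4 related genes higher and 8 lower. Requiring background to be passed on all 8 arrays left 2318 genes higher. Trended robust variance and array weights each called 6 related genes lower, and the percentile over probes detected on all arrays called 1. Bright features alone, chosen after seeing the data, gave 313 genes higher and 432 lower, 1 subunit gene higher, and 1 related gene in each direction; this setting does not test Cox6a2. The cause of these shifts was not tested.

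With the replicate number as a block, 987 genes were lower over all features, and related genes gave 1 in each direction. Among subunit genes 1 was higher (Cox6a2) and 1 lower (Cox7c), and the calls of Ndufa1 and Atp5pf were lost. The labels state no pairing by these numbers.

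Leaving out 1 array at a time, with features chosen on all 8, gave 4020 to 4602 genes higher and 912 to 1337 lower, 1 to 3 subunit genes higher and 1 to 3 lower, and 1 to 2 related genes higher and 1 to 3 lower. The medians ran from -0.07 to 0.01 for complex I, -0.10 to 0.00 for II, -0.07 to 0.01 for III, -0.21 to -0.12 for IV and -0.17 to -0.07 for V. Dim genes such as Ndufs4 and Cox8b lie close to background and have wide errors.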
